A study of Capra hircus with 8 samples.

Results

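The 10 genes described here encode the machinery that prepares DNA for replication, and were chosen by symbol in the authors' table of messenger RNAs of 8-cell goat (Capra hircus) embryos. They are MCM2, MCM3, MCM4, MCM5, MCM6, MCM7, CDT1, CDC6, ORC1 and E2F1, 10 of 22107 entries. Each symbol has a single entry. The samples were 2 libraries of embryos obtained through in vitro fertilisation (IVF) and 2 libraries of cloned embryos from somatic cell nuclear transfer (SCNT). In SCNT an enucleated egg receives a somatic nucleus in place of its own. All 4 were of polyadenylated RNA from directly lysed 8-cell embryos, amplified by smart-seq2. The labels name no donor cell line, breed, number of embryos per library or further treatment, and do not say whether replicates are separate pools, so p-values measure only the spread between these libraries. The series also holds 4-cell libraries, whose tables cover long non-coding RNAs and were not used here.

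Before S phase, the origin recognition complex (ORC) binds DNA at replication origins. CDC6 joins it, and CDT1 brings in the MCM helicase, a ring of the 6 related subunits MCM2 to MCM7, which later unwinds the DNA. Loading is then shut off by geminin, which binds CDT1, and by destruction of CDT1. E2F1 is a transcription factor whose known targets in mammalian cells include MCM genes, CDC6, CDT1, ORC1 and E2F1 itself. Early cleavage embryos divide with little growth and draw on RNA and protein stored in the egg.

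The number of reads behind the FPKM scaling (fragments per kilobase of gene and per 1000000 fragments) was recovered as 27.5 and 30.3 M (1000000 reads) in IVF replicates 1 and 2, and 28.4 and 28.5 M in SCNT replicates 1 and 2. SCNT replicate 2 stood apart. Across 10303 tested genes it correlated with the IVF libraries at r = 0.78 and 0.82, SCNT replicate 1 did so at 0.89 and 0.91, and the SCNT pair correlated at 0.90. Genes at 1 FPKM or more numbered 8984 and 9038 in IVF and 9883 and 11025 in SCNT. Of 10 embryo and oocyte markers, the 7 in the table were all tested, 1 rose, 0 fell and 5 had an unadjusted p under 0.05. Of all 10303 tested genes, 3.02% rose, 0.844% fell and 3200 had an unadjusted p under 0.05 in limma. The oocyte gene ZAR1L rose from 195 and 184 FPKM in IVF to 783 and 1566 FPKM in SCNT (log2 difference 2.54 ± 0.44 SE, limma adjusted p = 0.0330, but 0.0859 and 0.0848 without IVF replicate 1 or 2), while ARGFX had 497 and 105 FPKM in IVF against 51.4 and 88.3 FPKM in SCNT, and LEUTX overlapped between the groups. In that list both SCNT libraries were above both IVF libraries for 5 of the 7 genes and below them for 1, ARGFX. Over all tested genes these shares were 46.9% above and 17.1% below. The list summed to 1553 to 2276 FPKM in IVF against 2454 to 3901 FPKM in SCNT. Of 12 fibroblast markers, 9 were tested, 2 rose in SCNT (TIMP1 and TAGLN, which met the minimum of 1 FPKM only there) and 5 had an unadjusted p under 0.05. Neither passed in limma without IVF replicate 1 or without SCNT replicate 2 (adjusted p from 0.0506 to 0.144), nor TAGLN without IVF replicate 2 (0.175). Both SCNT libraries were above both IVF libraries in 5 of the 9 and below them in 2, against 46.9% and 17.1% of all tested genes. The list summed to 123 to 134 FPKM in IVF against 99.7 to 101 FPKM in SCNT. DCN had 94.3 and 85.5 FPKM in IVF against 33.9 and 39.5 FPKM in SCNT. Without DCN, left out after its values were seen, the sums were 37.3 to 39.3 FPKM in IVF and 61.3 to 65.9 FPKM in SCNT. Of the 9 tested, 6 had a log2 difference above 0 and 3, DCN, FN1 and PDGFRA, below. FN1 had 12.2 and 13.5 FPKM in IVF against 9.44 and 11.4 FPKM in SCNT. PDGFRA (log2 difference −0.30) and LUM (0.08) overlapped between the groups. The collagen gene COL3A1 had 0.185 and 0.126 FPKM in IVF against 2.41 and 1.63 FPKM in SCNT (limma adjusted p = 0.0550). It met the minimum of 1 FPKM only in SCNT. VIM had 2.15 and 4.09 FPKM in IVF against 11.4 and 6.25 FPKM in SCNT (limma adjusted p = 0.138). Of 7 cumulus and granulosa markers in the table, 3 were tested and 0 passed in limma, at an adjusted or an unadjusted p under 0.05; FSHR and AMH were listed at 0 throughout. That list summed to 41.9 and 51.2 FPKM in IVF against 21.1 and 35.4 FPKM in SCNT. The part of other cell types in the results below was not tested. In whole embryos, more RNA per cell and more cells that carry it cannot be told apart.

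Every gene of the group was detected in every library, at levels from 0.193 to 332 FPKM. FPKM is per length, so levels of different genes are set side by side here. Such comparisons depend on the gene lengths of an annotation that is not named, and bias of amplification between genes was not tested. CDC6 was the highest of the 10 in all 4 libraries and CDT1 the lowest. By mean level the order was CDC6, MCM6, MCM3, MCM4, MCM5, MCM7, ORC1, E2F1, MCM2 and CDT1. In IVF, neighbours in this order were apart in both libraries except MCM5 and MCM7, whose ranges overlapped, and ORC1 lay above MCM7. In SCNT the ranges of MCM6 and MCM3, of MCM4 and MCM5, of MCM5 and MCM7, and of E2F1 and MCM2 overlapped.

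**Figure D1:**
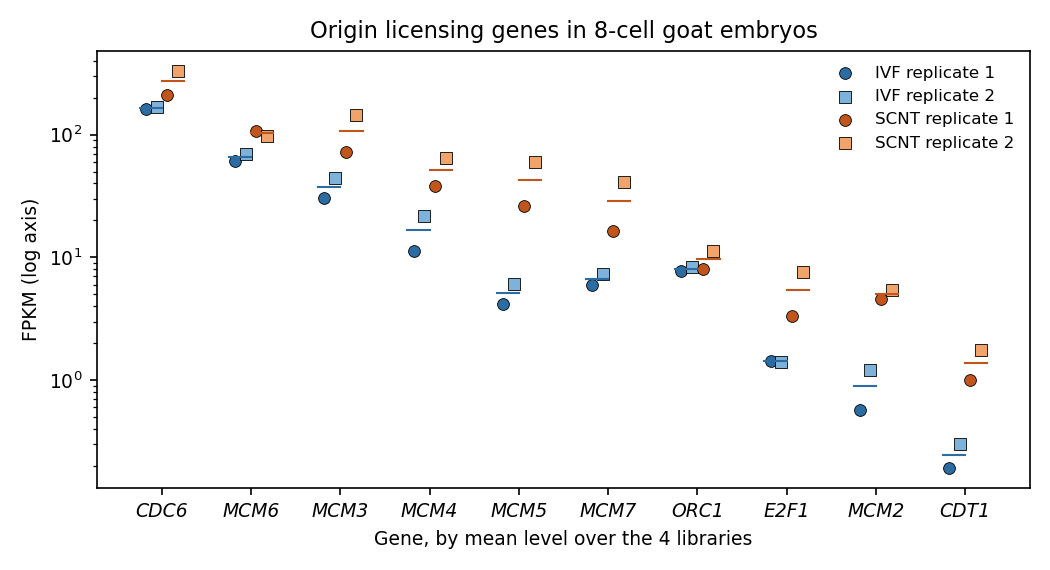
FPKM of each gene in each 8-cell library on a log axis, with genes ordered by their mean; short lines are group means of 2 libraries. For all genes but ORC1, both SCNT values lie above both IVF values, and MCM5 runs from 4.20 and 6.11 FPKM in IVF to 26.1 and 60.0 FPKM in SCNT.

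The comparison of SCNT with IVF embryos asks whether the licensing machinery stands at the same RNA level in cloned and fertilised embryos. MCM5, a subunit next to MCM2 in the ring, rose in SCNT embryos and was the single gene of the 10 that passed. It stood at 4.20 and 6.11 FPKM in the IVF libraries and at 26.1 and 60.0 FPKM in the SCNT libraries. The lower SCNT value lay well above the higher IVF value, and the SCNT replicates differed from each other by 2.30-fold. The means were 5.16 ± 1.35 and 43.1 ± 24.0 FPKM (SD, n = 2), a ratio of 8.35. On the scale of log2(FPKM + 1) the difference was 2.74 ± 0.51 (SE), larger than that of 99.1% of tested genes, with an adjusted p of 0.0387 in limma. Behind these values were 288 and 462 reads in IVF and 1848 and 4263 reads in SCNT. Without SCNT replicate 2 the difference was 2.16 and did not pass (adjusted p = 0.0850), nor did it without IVF replicate 1 (2.52, 0.109). Over 13 alternatives the adjusted p ranged from 0.00486 to 0.242, and MCM5 passed in 9 of them.

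Across all genes, 3.86% of those tested passed, 3.02% higher and 0.844% lower in SCNT. The count of 1 in 10 is read against these shares. Both SCNT libraries lay above both IVF libraries for 9 of the 10 licensing genes, against 46.9% of all tested genes, and below for 0 of the 10, against 17.1%. The median log2 difference was 1.39 over the 10 genes and 0.39 over all tested genes. CDT1 entered the test only through its SCNT values, since both IVF values were under the 1 FPKM minimum. MCM2 reached that minimum in only 1 IVF library, so it too entered only with its SCNT values. These counts therefore describe the group and support no more. The median over all tested genes was 0.44 after rescaling to equal sums, −0.10 after median centring and −0.01 after quantile normalization. Under each of these, and as deposited, 9 of the 10 genes lay above it and ORC1 below. Without SCNT replicate 2, the library that stood apart, the median over the 10 genes was 0.90 and that over all tested genes 0.33.

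The other MCM genes did not pass, and a p that misses the threshold does not show that they were alike in both kinds of embryo. MCM7, which sits between MCM3 and MCM4 in the ring, stood at 5.94 and 7.28 FPKM in IVF and at 16.4 and 41.5 FPKM in SCNT. The difference was 1.84 ± 0.53 (SE) on the log2 scale (limma adjusted p = 0.0691). Its groups did not overlap, and SCNT replicate 2 was 2.53-fold above SCNT replicate 1. In the RefSeq goat gene table, assembly ARS1.2, the MCM7 gene overlaps AP4M1 and the microRNA genes MIR106B, MIR93 and MIR25, so its reads may be shared with them; whether the counting used strand is not given in the sources used here.

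MCM2, which carries a histone-binding tail, was the scarcest subunit in every library. It had 0.574 and 1.21 FPKM in IVF against 4.56 and 5.47 FPKM in SCNT, a log2 difference of 1.69 ± 0.42 (SE; limma adjusted p = 0.0579). The SCNT pair was close, 1.20-fold apart, while the IVF pair was 2.10-fold apart. The IVF values rested on 53 and 123 reads, with exact 95% Poisson intervals of 39.7 to 69.3 and 102.2 to 146.8 reads, and the SCNT values on 435 and 524 reads. These intervals cover counting error only, and copies made by PCR are not separate molecules. In the RefSeq goat assembly named above, the MCM2 gene is unplaced, and whether this bears on its level was not tested.

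MCM4 and MCM6 form, with MCM7, a subcomplex with helicase activity of its own. MCM4 was at 11.4 and 21.8 FPKM in IVF and at 38.4 and 64.4 FPKM in SCNT (log2 difference 1.60 ± 0.48 SE, limma adjusted p = 0.0776). MCM6 was at 60.6 and 69.8 FPKM in IVF and at 107 and 97.4 FPKM in SCNT (0.64 ± 0.38 SE, limma adjusted p = 0.278). Thus MCM6, the most abundant subunit of IVF embryos, showed the smallest difference of the ring, and both of its pairs were tight. MCM3, the partner of MCM5 in the ring, had 30.3 and 44.0 FPKM in IVF against 72.2 and 143 FPKM in SCNT (1.45 ± 0.47 SE, limma adjusted p = 0.0851). For both MCM3 and MCM4 the groups did not overlap, and replicate 2 was the higher library in each group.

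The subunits are used in equal number in the ring, but their RNAs were far from equal in FPKM. The ratio of the most to the least abundant subunit was 106 and 57.9 for IVF replicates 1 and 2, against 23.5 and 26.2 for the SCNT replicates. MCM2 was lowest in each library. MCM6 was highest in all but SCNT replicate 2, where MCM3 was. The share of MCM6 in the summed FPKM of MCM2 to MCM7 was 53.7% and 46.5% in IVF and 40.4% and 23.6% in SCNT. The level of MCM5 relative to its partners within a library does not depend on how that library is scaled. Its FPKM was 0.450 and 0.429 times the geometric mean of the other 5 subunits in IVF and 0.887 and 1.31 times in SCNT. The groups did not overlap, but with 2 libraries against 2 an exact permutation test cannot go below a two-sided p of 0.333.

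The loading factors CDC6 and CDT1 stood at opposite ends of the range. CDC6, the ATPase that joins ORC, was at 160.3 and 167 FPKM in IVF and at 211 and 332 FPKM in SCNT. Its log2 difference was 0.69 ± 0.40 (SE; limma adjusted p = 0.269), and the gap within the SCNT pair, 0.65, was nearly as large. CDT1, which delivers the MCM ring, was at 0.193 and 0.302 FPKM in IVF and at 1.0 and 1.78 FPKM in SCNT. Its log2 difference was 0.92 ± 0.33 (SE; limma adjusted p = 0.107), and the ratio of the means without a pseudocount was 5.61. The pseudocount of 1 FPKM compresses a gene at this level: with 0.1 FPKM the difference was 2.07. CDT1 rested on 11 and 19 reads in IVF, with exact 95% Poisson intervals of 5.5 to 19.7 and 11.4 to 29.7 reads. In SCNT it rested on 59 and 105 reads, with intervals of 44.9 to 76.1 and 85.9 to 127.1 reads.

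ORC1, the ATPase subunit of ORC that varies through the cell cycle in mammalian cells, was the member with overlapping groups. It stood at 7.82 and 8.40 FPKM in IVF and at 8.12 and 11.2 FPKM in SCNT. The log2 difference was 0.21 ± 0.44 (SE; limma adjusted p = 0.776) as deposited, and it turned to −0.28 after median centring and −0.24 after quantile normalization. E2F1, the transcription factor, was at 1.43 and 1.42 FPKM in IVF and at 3.35 and 7.54 FPKM in SCNT. The IVF pair was almost equal, and both SCNT libraries were above it, 2.25-fold apart from each other. Its log2 difference was 1.33 ± 0.47 (SE; limma adjusted p = 0.106), on 104 and 114 reads in IVF and 252 and 570 reads in SCNT.

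**Figure D2:**
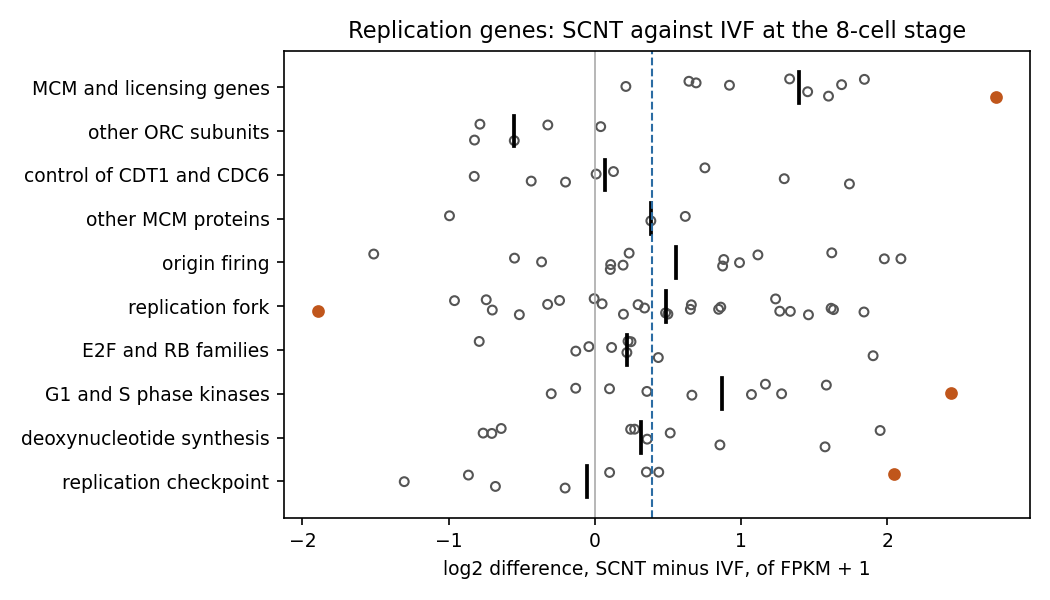
Log2 difference, SCNT minus IVF, on the scale of FPKM + 1 for each tested gene of the licensing group (top line) and of 9 lists of other replication genes; filled points passed in limma, open points did not, black bars are list medians and the dashed line is the median of all tested genes, 0.39. The licensing genes lie between 0.21 and 2.74, and the 5 other ORC subunits between −0.82 and 0.04.

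The other genes of DNA replication were followed in 9 lists of 102 genes, of which 101 were in the table and 92 were tested. In them 2 rose, 1 fell and 89 did not pass, or 3.26% called against 3.86% of all tested genes. Their median log2 difference was 0.25, below the 0.39 of all tested genes. Both SCNT libraries lay above both IVF libraries for 42 of the 92 and below for 15, against 46.9% and 17.1% of all tested genes. Of the 92, 23 had an unadjusted p under 0.05 in limma, against 3200 of the 10303 tested genes.

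ORC is the landing platform for CDC6. None of its other 5 subunits passed in limma, at an adjusted or an unadjusted p under 0.05, and their median log2 difference was −0.55, with 4 of 5 below 0. Without SCNT replicate 2 the median was 0.0061, with 2 of 5 below 0. Without SCNT replicate 1 it was −0.95, with 5 of 5 below 0. ORC5 was the most abundant, at 416 and 424 FPKM in IVF against 287 and 196 FPKM in SCNT (log2 difference −0.82 ± 0.39 SE, limma adjusted p = 0.190). ORC4 had 20.2 and 21.9 FPKM in IVF against 21.1 and 6.37 FPKM in SCNT, so its difference of −0.79 came with SCNT replicate 2 and was 0.0061 without it. ORC1 made up 1.11% and 1.13% of the summed FPKM of ORC1 to ORC6 in IVF and 1.21% and 2.75% in SCNT. The summed FPKM of MCM2 to MCM7 relative to that of ORC1 to ORC6 was 0.160 and 0.202 in IVF. In SCNT it was 0.394 and 1.01, with the replicates further apart from each other than the groups were at their nearest.

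The list of genes that control CDT1 and CDC6 holds 8 members, with 0 called in limma and 2 at an unadjusted p under 0.05. These 2, DDB1 and CUL4A, encode parts of the CUL4 ubiquitin ligase, which marks CDT1 for destruction. DDB1, its adaptor, had 0.929 and 1.74 FPKM in IVF against 4.94 and 8.94 FPKM in SCNT (log2 difference 1.74 ± 0.47 SE, limma adjusted p = 0.0650). DDB1 reached the 1 FPKM minimum in only 1 IVF library, so it entered the test only with its SCNT values. CUL4A, the scaffold of the ligase, had 3.57 and 5.13 FPKM in IVF against 11.3 and 12.7 FPKM in SCNT (1.29 ± 0.45 SE, limma adjusted p = 0.101). DTL, also of this list, had 28.1 and 33.6 FPKM in IVF against 43.8 and 62.7 FPKM in SCNT (0.75 ± 0.41 SE, limma adjusted p = 0.243). The groups overlapped for CUL4B and RBX1. CUL4B, the alternative scaffold, had 39.7 and 23.0 FPKM in IVF against 33.7 and 7.98 FPKM in SCNT (−0.83 ± 0.65 SE, limma adjusted p = 0.414), a difference that was 0.15 without SCNT replicate 2, and RBX1, the RING subunit, had 62.7 and 52.3 FPKM in IVF against 43.2 and 57.1 FPKM in SCNT (−0.20 ± 0.40 SE, limma adjusted p = 0.763). GMNN, which encodes geminin, was chosen for its role after its values were seen. It had 533 and 371 FPKM in IVF against 364 and 296 FPKM in SCNT (−0.44 ± 0.40 SE, limma adjusted p = 0.482). Its groups were apart by little, since the lower IVF library and the higher SCNT library were close. In FPKM, GMNN exceeded CDT1 by 2760 and 1228 times in IVF and by 363 and 167 times in SCNT. The counting error of CDT1 in IVF, given above, carries over to these ratios. They also depend on the gene lengths, recovered as 574 bases for GMNN and 2073 bases for CDT1.

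**Figure D3:**
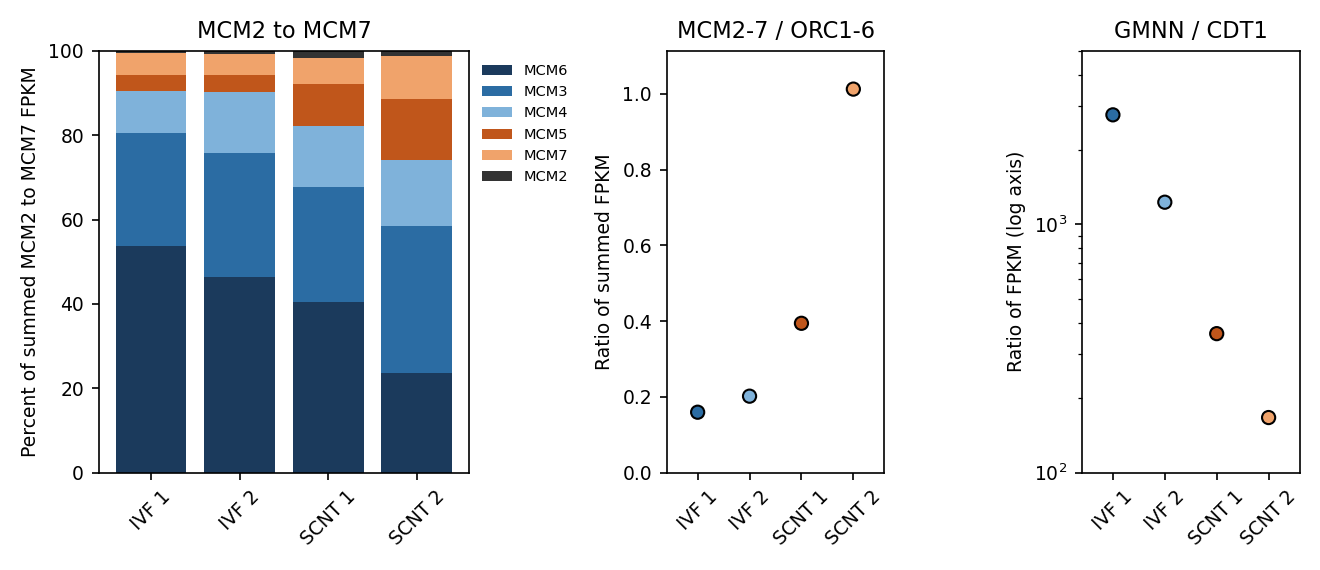
Left, percent of the summed FPKM of MCM2 to MCM7 held by each subunit in each 8-cell library; middle, ratio of the summed FPKM of MCM2 to MCM7 to that of ORC1 to ORC6; right, ratio of GMNN to CDT1 FPKM on a log axis, 1 point a library. MCM6 holds 53.7% and 46.5% in IVF and 40.4% and 23.6% in SCNT, and the ratio of MCM to ORC is highest, 1.01, in SCNT replicate 2.

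Origin firing turns the loaded MCM ring into an active helicase with CDC45 and the GINS complex. Of 14 genes tested, 0 were called in limma and 5 had an unadjusted p under 0.05, against 3200 of the 10303 tested genes. Both SCNT libraries were above both IVF libraries for 7 and below them for 2, against 46.9% and 17.1% of all tested genes. GINS4 was at 20.6 and 36.1 FPKM in IVF and at 75.9 and 188 FPKM in SCNT (log2 difference 2.09 ± 0.53 SE, limma adjusted p = 0.0591). GINS2 was at 3.08 and 6.07 FPKM in IVF and at 11.8 and 34.1 FPKM in SCNT (1.98 ± 0.59 SE, limma adjusted p = 0.0753). GINS3 had 4.40 and 9.41 FPKM in IVF against 11.5 and 14.3 FPKM in SCNT (0.88 ± 0.49 SE, limma adjusted p = 0.254). GINS1 overlapped between the groups, at 22.4 and 29.4 FPKM in IVF against 33.3 and 27.7 FPKM in SCNT (0.23 ± 0.41 SE, limma adjusted p = 0.730; −0.26 after median centring). The relatives MCM8 and MCM9, which act together in repair of DNA breaks, differed in sign. MCM8 was at 26.2 and 29.5 FPKM in IVF and at 17.8 and 10.1 FPKM in SCNT (−0.99 ± 0.45 SE, limma adjusted p = 0.171). MCM9 was at 7.07 and 11.0 FPKM in IVF and at 13.5 and 14.8 FPKM in SCNT (0.62 ± 0.45 SE, limma adjusted p = 0.375). With MCMBP, which binds MCM proteins, that list had 3 tested genes and 0 called in limma, at an adjusted or an unadjusted p under 0.05.

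At the replication fork, 25 of 28 genes were tested, and 1 fell and 24 did not pass. POLE2, a subunit of the leading-strand polymerase epsilon, fell from 81.5 and 99.5 FPKM in IVF to 29.0 and 19.0 FPKM in SCNT (log2 difference −1.89 ± 0.42 SE, limma adjusted p = 0.0485). Its call was lost in 7 of 13 alternatives, with adjusted p-values from 0.0137 to 0.242. Among those were the fits without each single library but SCNT replicate 1, where the difference ranged from −2.04 to −1.60. TIMELESS, a fork protection gene, had 1.32 and 4.13 FPKM in IVF against 9.99 and 12.9 FPKM in SCNT (1.84 ± 0.52 SE, limma adjusted p = 0.0689).

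Of the other E2F and RB family genes, 9 of 12 were tested and 0 were called in limma, with 1 at an unadjusted p under 0.05. E2F4, usually counted among the repressing E2F factors, was at 5.64 and 17.0 FPKM in IVF and at 23.7 and 66.4 FPKM in SCNT (log2 difference 1.90 ± 0.64 SE, limma adjusted p = 0.0950). E2F5, its closest relative in role, was at 14.5 and 16.8 FPKM in IVF and at 13.7 and 5.24 FPKM in SCNT (−0.79 ± 0.52 SE, limma adjusted p = 0.327). E2F4 supplied 16.5% and 35.4% of the summed FPKM of E2F1 to E2F8 in IVF and 40.8% and 70.2% in SCNT. E2F1 supplied 4.17% and 2.95% in IVF and 5.76% and 7.97% in SCNT, so its share was small in every library. In SCNT replicate 2, however, E2F4 alone of these genes was higher than E2F1.

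Among kinases, cyclins and inhibitors of G1 and S phase, 10 of 12 were tested, 1 rose and 9 did not pass. CDKN1A, the inhibitor p21 of cyclin-dependent kinases, rose from 0.122 and 0.138 FPKM in IVF to 2.58 and 9.40 FPKM in SCNT (log2 difference 2.43 ± 0.52 SE, limma adjusted p = 0.0463). It rested on 8 and 10 reads in IVF against 175 and 639 reads in SCNT. It passed the minimum level only through its SCNT libraries, and without SCNT replicate 2 the difference was 1.67 and did not pass (0.0779; range over alternatives 0.00676 to 0.242). It did not pass without IVF replicate 1 either (0.0604). CDK2, the S phase kinase, was steady within groups, at 5.54 and 5.47 FPKM in IVF against 18.5 and 18.4 FPKM in SCNT (1.58 ± 0.43 SE, limma adjusted p = 0.0650).

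Of 10 genes of deoxynucleotide synthesis, 0 were called in limma and 2 had an unadjusted p under 0.05. DTYMK, which makes the diphosphate of thymidine, had 1.35 and 1.85 FPKM in IVF against 6.47 and 12.4 FPKM in SCNT (log2 difference 1.95 ± 0.48 SE, limma adjusted p = 0.0579). DCTD, the dCMP deaminase, had 71.5 and 93.1 FPKM in IVF against 187 and 321 FPKM in SCNT (1.57 ± 0.43 SE, limma adjusted p = 0.0650). In the replication checkpoint, 8 of 9 genes were tested, 1 rose and 7 did not pass. RAD1, part of the 9-1-1 clamp, rose from 0.339 and 0.278 FPKM in IVF to 4.84 and 4.01 FPKM in SCNT (2.05 ± 0.37 SE, limma adjusted p = 0.0366). It rested on 21 and 19 reads in IVF against 309 and 257 reads in SCNT and, like CDKN1A, met the minimum level only in SCNT. It passed in 7 of 12 alternatives (adjusted p from 0.00804 to 0.242), and not without SCNT replicate 2 (0.0682), IVF replicate 1 (0.121) or IVF replicate 2 (0.109). WEE1, a kinase that restrains entry into mitosis, had 12.0 and 7.42 FPKM in IVF against 3.20 and 3.26 FPKM in SCNT (−1.30 ± 0.46 SE, limma adjusted p = 0.105).

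The mean pattern of MCM2 to MCM7 over the 4 libraries was compared with that of each tested gene, as the Euclidean distance between log2(FPKM + 1) values centred on each gene's mean. Outside the lists, the nearest genes with a symbol were ELF3 (distance 0.05), an epithelial transcription factor gene, RNPEP (0.07), an aminopeptidase gene, and ZNF212 (0.08), a zinc finger gene. ELF3 stood at 0.796 and 1.39 FPKM in IVF and at 4.04 and 7.17 FPKM in SCNT. It reached the 1 FPKM minimum in only 1 IVF library, and ZNF212 reached it in SCNT only. ELF3, RNPEP and ZNF212 were picked as the nearest over only 4 libraries, so their small distances follow from that choice. MCM3 itself lay at 0.28, with 1.68% of tested genes nearer to the mean pattern, and MCM4 at 0.30. MCM5 lay at 1.13 and MCM6 at 1.19, on either side of the mean, and ORC1 farthest of the 10, at 1.49, with 49.3% of tested genes nearer.

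The differences of the 10 genes were also set against the median of all tested genes under every alternative treatment of the data. As deposited, MCM5 lay 2.35 above that median on the log2 scale, MCM7 1.45, MCM2 1.30, MCM4 1.21 and MCM3 1.06. E2F1 lay 0.94 above it, CDT1 0.53, CDC6 0.30 and MCM6 0.25. ORC1 lay below it, at −0.18. Replicate 2 of SCNT exceeded replicate 1 by a median of 0.69 over the 10 genes and 0.25 over all tested genes, and the corresponding gaps in IVF were 0.23 and 0.06. The library that stood apart was thus also the one with the highest levels of 9 of the 10 genes, with MCM6 higher in SCNT replicate 1.

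**Figure D4:**
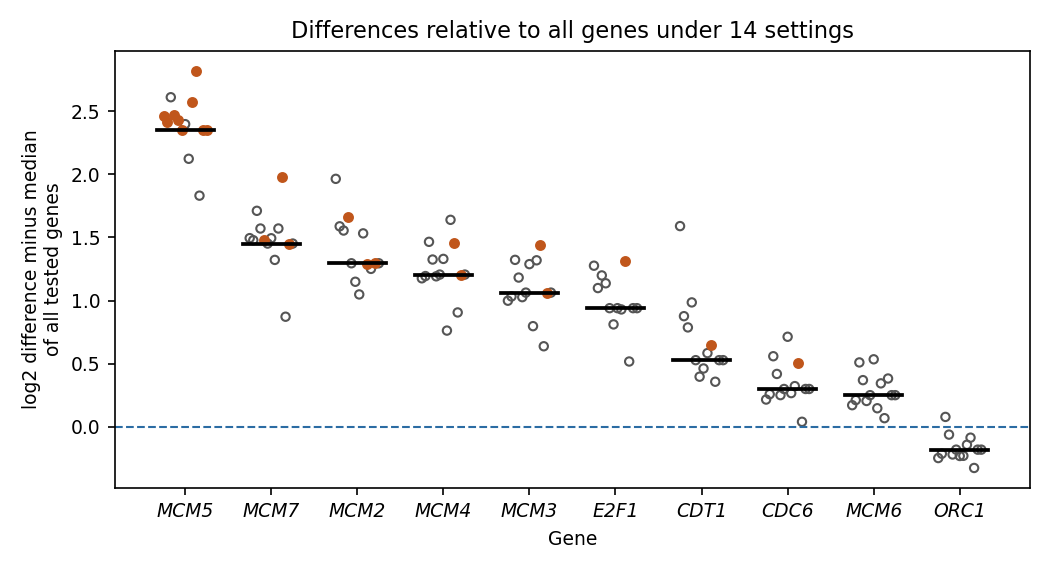
Log2 difference, SCNT minus IVF, of each gene minus the median of all tested genes, as deposited (black bar) and under each alternative (points, filled where the gene passed in limma); alternatives that left a gene under the minimum level give no point. MCM5 lies at 2.35 as deposited and above the other genes under the settings shown, and ORC1 lies at −0.18.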

How the data were processed

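The authors deposited FPKM values (fragments per kilobase of gene and per 1000000 fragments) for the 8-cell libraries. Per the submitters' processing notes, the tools were fastp, HTSeq and HISAT2 2.2.1, whose roles and order are not stated there. No source used here gives the genome build, annotation or scaling total, and coordinates are left out.

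FPKM values of a gene step in whole reads. Ratios of library totals came from genes with equal low counts, and the size of the totals from requiring whole gene lengths. Of 400 genes, 99.25% came to whole reads in all 4 libraries within 0.0001 read, and 89.3% of 84 short genes to a whole length within 0.02 base. Reads per gene are the smallest numbers that satisfy both. No count test was run.

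Genes that reached 1 FPKM in at least 2 of 4 libraries were tested with limma 3.58.1 in R 4.3.3 (trend of variance on level) on log2(FPKM + 1), two-sided, with Benjamini-Hochberg adjustment over all 10303 tested genes at 0.05. The code was tested on simulated data. Differences are SCNT minus IVF and understate the fold of genes at low level. Alternatives were other pseudocounts (0.1, 0.5), filters and scalings, a fit without trend, a replicate block and leaving out each library. Named genes were the 10 members, all called genes of each list, or the largest differences up to 2 a list, and the 3 nearest patterns. Members and lists were chosen with earlier results of these data known. GMNN, DTL, CUL4B, RBX1, GINS1 and GINS3, for their roles, and the single marker genes were named after their values were seen.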

Additional observations from a re-analysis of the deposited data

How the results depend on the processing

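MCM5 held the largest log2 difference of the 10 genes as deposited and under the 13 alternatives, from 2.16 to 3.33, but its call did not hold throughout. As deposited, 398 of 10303 tested genes were called in limma, and 3200 had an unadjusted p under 0.05. The genes called were 0 with no filter on low values (3661 unadjusted), 133 at a minimum of 5 FPKM and 1327 after rescaling to a sum of 1000000. Of the 10 licensing genes (1 as deposited, 7 at an unadjusted p under 0.05), 0 were called with no filter (6 unadjusted), 0 after quantile normalization (5 unadjusted) and 3 after rescaling. Of the other replication genes (3 as deposited), 0 were called with no filter (29 unadjusted), 0 at 5 FPKM (16 unadjusted), 0 after quantile normalization (18 unadjusted), 12 after rescaling and 1 in limma without trend. After median centring 158 genes were higher and 238 lower, against 311 and 87 as deposited, 121 and 150 after quantile normalization and 1133 and 194 after rescaling. The cause was not tested.

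Leaving out single libraries gave 46 to 3834 genes, 0 to 8 licensing genes and 0 to 38 other replication genes. Each lowest count came without SCNT replicate 2 (7 licensing and 22 other genes at an unadjusted p under 0.05); without IVF replicate 1 the counts were 173, 0 and 0 (2 and 7 unadjusted), and without IVF replicate 2 they were 257, 1 and 1. The highest came without SCNT replicate 1, where the spread rests on the closer IVF pair, and the lone SCNT library is assumed to vary like it. After median centring and quantile normalization ORC1 (−0.28 and −0.24) and GINS1 (−0.26 and −0.072) changed sign. Without SCNT replicate 2 so did ORC4 (0.0061, against −1.58 without SCNT replicate 1) and CUL4B (0.15, against −1.80), and without SCNT replicate 1 LEUTX (0.11, against −1.53 without replicate 2).

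With the replicate number as a block, 1924 genes, 5 licensing genes (MCM2, MCM3, MCM4, MCM5 and MCM7) and 18 other replication genes were called. The labels do not say that the numbers pair the libraries. Across genes the replicate differences of the IVF and SCNT pairs correlated at 0.12. Depth limits low genes: in IVF, CDT1 rested on 11 and 19 reads, CDKN1A on 8 and 10 and RAD1 on 21 and 19.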
